A study of Mus musculus with 2 samples.

Results

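Forkhead transcription factors share a winged-helix DNA-binding domain, the forkhead box, and are named Fox with a letter for the subfamily. FoxA proteins open compact chromatin in endoderm, and the FoxB to FoxF, FoxH, FoxI, FoxL and FoxQ genes are known mainly from the making of organs in the embryo. FoxP proteins shape lymphocytes, with Foxp1 keeping T cells quiescent and Foxp3 defining regulatory T cells. FoxJ, FoxK and FoxN genes include regulators of cilia, metabolism and the thymic stroma. The question here was which of these genes carried histone H3 β-hydroxybutyrylated at lysine 9 (H3K9bhb), a mark derived from the ketone body β-hydroxybutyrate, in CD8+ memory T cells. The members were all protein-coding genes of the RefSeq table (GRCm38.p6, of which mm10 is another name) whose symbol is Fox, a letter and a digit, leaving out the 4 FoxO genes. They numbered 40 of 21900 genes. Following the groups under study, 13 were FoxP, FoxJ, FoxK or FoxN genes, called lymphocyte-group genes here, and 27 were the others, called developmental. The names are those of the groups and not of each gene: Foxn1 is known from thymic epithelium, Foxn4 from retina, and Foxm1, counted as developmental, from the cell cycle.

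The data were 1 chromatin immunoprecipitation (ChIP-seq) library made with 4 µg of an H3K9bhb antibody, and 1 input DNA library without antibody, each given as 70 M reads of 150 bp in pairs. Both came from spleen cells of C57BL/6 OT-I mice, whose T cells carry a transgenic receptor for a peptide of ovalbumin. Activation lasted 3 days, with 200 ng/ml of that peptide and 10 ng/ml of interleukin-2. The cells were then programmed with interleukin-15 at 10 ng/ml for 4 days, and treated with β-hydroxybutyrate for 3 days. The sources used here give neither age nor sex. Each condition had 1 library, no untreated culture was analysed here, and no difference below has a replicate check. Values came from the peak list of the ChIP library, in which each of 2315 summits is a position of 1 bp. The summits belong to 2204 peaks, and each has a score, the −log10 p or q that the authors' caller gave it, which is higher where the signal stood farther above background. Of 8 markers that define CD8 T cells (Cd8a, Cd8b1, Cd3d, Cd3e, Cd3g, Lck, Thy1 and Cd2), none (0) had a peak, and 3 counts of the total put the upper limit at 37.5%. A peak was found at 11.4% of all protein-coding genes, so a count of 0 among so few genes is near that share and says nothing for or against the labelled cell type. Markers of CD4 and regulatory T cells (0 of 3), B cells (0 of 5) and myeloid cells (0 of 5) had none either. Of 3 NK cell markers Eomes, a T-box factor that CD8 memory cells also use, had a summit with a score of 3.17.

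The sequences just upstream of the transcription start are shown first, for the 4 members with a summit within 500 bp of a start listed in the RefSeq promoter table and, for contrast, 3 lymphocyte-group members with no peak, the first in alphabetical order that the table holds (it does not list Foxj1). Each is the 250 bases before the start, 5′ to 3′ on the gene's strand, with CpG dinucleotides, the sites of DNA methylation, in capitals. The members with a summit are in order of score. The windows are chr13:98353995-98354244 (plus strand), chr6:70956356-70956605 (plus), chr4:114908899-114909148 (minus) and chr9:98955357-98955606 (plus), followed by chr6:122819934-122820183, chr4:119539411-119539660 and chr11:121259737-121259986, all plus.
Foxd1: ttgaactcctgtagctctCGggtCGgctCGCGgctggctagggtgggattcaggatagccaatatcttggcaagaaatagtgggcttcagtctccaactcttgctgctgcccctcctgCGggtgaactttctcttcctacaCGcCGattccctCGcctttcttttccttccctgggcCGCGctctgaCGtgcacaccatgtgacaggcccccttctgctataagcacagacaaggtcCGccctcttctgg
Foxi3: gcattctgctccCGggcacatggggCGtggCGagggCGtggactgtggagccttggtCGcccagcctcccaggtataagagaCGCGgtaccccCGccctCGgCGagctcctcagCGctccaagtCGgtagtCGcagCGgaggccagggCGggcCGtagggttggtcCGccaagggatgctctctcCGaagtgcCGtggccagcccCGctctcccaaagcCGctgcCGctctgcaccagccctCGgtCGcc
Foxd2: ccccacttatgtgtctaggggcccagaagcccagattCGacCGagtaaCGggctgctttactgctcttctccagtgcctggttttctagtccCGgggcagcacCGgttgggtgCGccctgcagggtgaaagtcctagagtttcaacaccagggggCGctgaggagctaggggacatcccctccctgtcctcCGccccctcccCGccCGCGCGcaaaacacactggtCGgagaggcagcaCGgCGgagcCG
Foxl2: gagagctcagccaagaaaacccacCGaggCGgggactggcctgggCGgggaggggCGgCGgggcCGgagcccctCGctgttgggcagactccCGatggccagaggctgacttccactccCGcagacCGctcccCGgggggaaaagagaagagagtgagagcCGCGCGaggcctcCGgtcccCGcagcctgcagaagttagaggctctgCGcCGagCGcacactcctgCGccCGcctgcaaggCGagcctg
Foxj2: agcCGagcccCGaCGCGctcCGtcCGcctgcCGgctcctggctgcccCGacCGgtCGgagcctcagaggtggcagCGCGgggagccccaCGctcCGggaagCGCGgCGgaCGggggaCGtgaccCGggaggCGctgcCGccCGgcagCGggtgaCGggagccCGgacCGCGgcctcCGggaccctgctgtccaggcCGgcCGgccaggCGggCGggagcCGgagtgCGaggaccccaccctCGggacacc
Foxj3: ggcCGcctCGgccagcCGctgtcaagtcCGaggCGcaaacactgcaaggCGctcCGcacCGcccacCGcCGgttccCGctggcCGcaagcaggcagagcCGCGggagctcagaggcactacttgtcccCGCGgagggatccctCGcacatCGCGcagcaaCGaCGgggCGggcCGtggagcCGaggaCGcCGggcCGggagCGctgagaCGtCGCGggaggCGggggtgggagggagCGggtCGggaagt
Foxk2: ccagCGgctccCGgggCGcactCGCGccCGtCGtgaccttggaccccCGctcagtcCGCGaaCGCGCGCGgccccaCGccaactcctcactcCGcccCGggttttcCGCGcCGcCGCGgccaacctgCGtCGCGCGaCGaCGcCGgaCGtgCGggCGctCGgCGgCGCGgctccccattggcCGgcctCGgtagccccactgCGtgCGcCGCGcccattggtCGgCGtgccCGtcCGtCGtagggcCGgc

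The 250 bases held 12 CpGs at Foxd1, 24 at Foxi3, 16 at Foxd2 and 22 at Foxl2. The 3 members without a peak that are shown held 36 at Foxj2, 34 at Foxj3 and 48 at Foxk2. Counted in the full table window of 300 bp (250 before and 50 after the start), Foxk2 had 59 CpGs, and 0.118% of 21263 protein-coding promoters held as many. Foxd1 had 15 in that window, and 46.8% of promoters held as many; the median promoter held 13. In that window the other lymphocyte-group members without a peak and with a listed start held 6 at Foxn3, 8 at Foxn1, 6 and 8 at the 2 starts of Foxp3, 22 at Foxn4 and 33 at Foxp4, so the shown 3 are the densest of them. Foxp1, which had a peak, held 5, 13 and 44 at its 3 starts. The other shown members with a peak held 31 at Foxi3, 26 at Foxd2 and 27 at Foxl2. As many were held by 14%, 22.6% and 20.7% of promoters. The summits of Foxd1 and Foxi3, 237 and 274 bp downstream of their starts, lie outside the counted window. The table held a promoter for 26 of the 40 members (65%), below the 80% set as a minimum, so CpG content was not compared between members with and without a peak. The forkhead binding motif TGTTTNC was searched on both strands (reverse complement GNAAACA), with TGTTTAC as its narrower form. The 26 members have 31 listed windows, and it was found in 7 of them (22.6%), 1 each at Foxa1, Foxd4, Foxi1, Foxj3, Foxp1, Foxp3 and Foxr2, against 18.1% of all promoter windows. TGTTTAC was in 1 of the 31 (3.23%), at Foxa1, against 3.01% of all windows. A match of letters is not evidence of binding.

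A larger share of forkhead genes than of all genes carried an H3K9bhb peak, and the share was 30.8% in the lymphocyte group and 33.3% among the developmental genes. Summits inside a gene or up to 5 kb away were taken as its own. Of the 40 members 13 had one (32.5%, exact 95% binomial interval 18.6 to 49.1), against 11.4% of all protein-coding genes. The lymphocyte group had 4 of 13 (interval 9.09 to 61.4): Foxp1, Foxp2, Foxn2 and Foxk1. The developmental group had 9 of 27 (16.5 to 54.0): Foxa2, Foxb1, Foxc2, Foxd1, Foxd2, Foxi3, Foxl2, Foxm1 and Foxq1. The difference, lymphocyte minus developmental, was -2.56 percentage points with an interval (Newcombe) of -28.7 to 28.1. No difference between the groups was detectable, and the interval leaves room for a large one in either direction. The intervals cover counting error only and treat genes as independent, which neighbouring genes may not be.

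**Figure D1:**
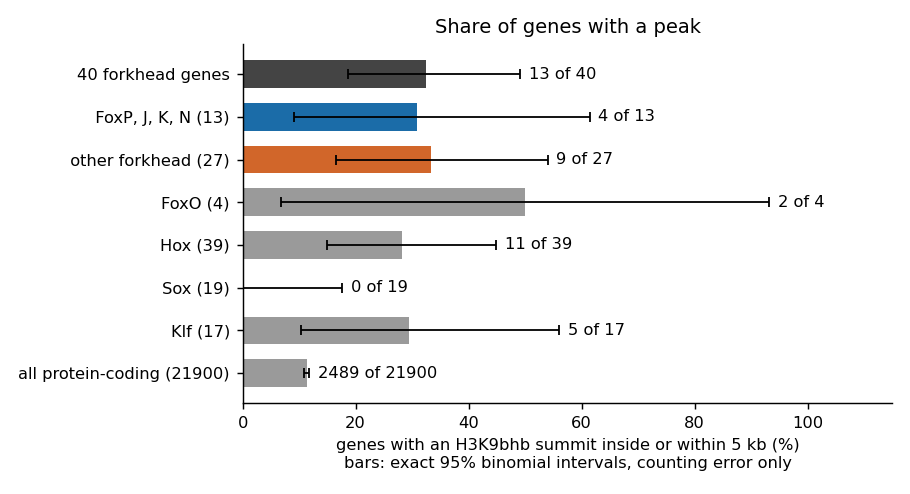
Share of genes with an H3K9bhb summit inside them or within 5 kb (%), for the 40 forkhead genes, their lymphocyte-group and developmental subsets, 4 other sets of transcription factor genes and all protein-coding genes; lines are exact 95% binomial intervals. The forkhead subsets lie at 30.8% and 33.3%, beside Hox at 28.2% and Klf at 29.4%, while Sox is at 0 and all genes at 11.4%.

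The groups differed in gene length, which bears on how much room a summit has. Developmental members were short, with a median of 3.26 kb and a longest of 18.3 kb, and lymphocyte-group members had a median of 49.9 kb and reached 597 kb. Joined with their flanks, the 27 developmental genes covered 0.391 Mb and held 12 peaks, which is 30.7 peaks per Mb (exact Poisson 95% interval 15.8 to 53.6). The 13 lymphocyte-group genes covered 2.04 Mb and held 4 peaks, 1.96 per Mb (0.533 to 5.01). Windows of all protein-coding genes held 1.79 per Mb (1.71 to 1.86). Per base, peaks were thus denser at the developmental genes than at the lymphocyte-group genes. A value per base depends on window length, and Foxp1, Foxp2 and Foxn3 alone span 597, 541 and 374 kb. By gene, the shares were 33.3% and 30.8%. The Poisson intervals did not overlap, but they treat peaks as independent, and Foxl2 held 3 of the 12 and Foxq1 2. The part of gene length in the per-base difference was not tested. The length classes that follow were chosen after the values were seen. Among genes of up to 5 kb, 8 of 21 developmental members (38.1%) had a peak, against 3.96% of all 5047 genes of that size and 5.25% when olfactory and vomeronasal receptor genes, which start with Olfr or Vmn, were left out. Among genes over 100 kb, 2 of 3 lymphocyte-group members (Foxp1 and Foxp2, not Foxn3) had a peak, against 16.6% of all. From 20 to 100 kb it was 2 of 8, against 15.8%, and from 5 to 20 kb 1 of 6 developmental members, against 10.1%.

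FoxP genes had a peak at 2 of 4, FoxK genes at 1 of 2 and FoxN genes at 1 of 4, counts too small to set against the 11.4% of all genes. Foxp1 (chromosome 6, 98925342 to 99522746), which encodes a repressor that holds T cells in the naive and quiescent state, had 1 summit at 99522773. It lay 27 bp outside the upper end, which is the 5′ end of this minus-strand gene, and scored 5.63, a value that 39.6% of peaks reached. Foxp1 has several transcription starts. The nearest one in the promoter table lies 1780 bp downstream of the summit, and the others are farther into the gene. Foxp2 (chromosome 6, 14901349 to 15441977), a factor of brain development linked to speech, had a summit 210 bp inside its lower end, at 14901559. Its score of 2.51 was among the lowest in the list, and 90.7% of peaks reached it. These genes each span over 500 kb, yet the only summit of each lay at an end. Foxp3 (chromosome X, 7579676 to 7595243), the factor of regulatory T cells, was 479 kb from the closest summit, and X held 22 of the 2204 peaks in all. Foxp4, a relative expressed in epithelia and thymocytes, was 130 kb away.

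Foxn2 and Foxk1 were the other lymphocyte-group genes with a peak. Foxn2 (chromosome 17, 88440704 to 88490533), a broadly expressed FoxN factor, had a summit 569 bp inside its lower end with a score of 3.17. Foxk1 (chromosome 5, 142401497 to 142462015), a repressor that recruits Sin3 and acts on autophagy and glycolysis genes, owed its call to the flank. Its summit at 142464160 was 2145 bp beyond the upper end, scored 5.98, and was nearer to an end of Ap5z1, which encodes an adaptor protein subunit, at 953 bp. Foxk2, its close relative, was 311 kb from the closest summit. The other FoxN genes had none within reach: Foxn3, a factor of the cell cycle checkpoint, at 64.2 kb, Foxn1, whose loss gives the nude mouse, at 67.5 kb, and Foxn4 at 124 kb. No FoxJ gene had a peak (0 of 3). Foxj2 was the closest of all members without one, at 8.84 kb from a summit scoring 6.60 whose nearest gene end was that of Foxj2. Foxj1, the master regulator of motile cilia and a restraint on T cell activation, was 98.8 kb away and Foxj3 105 kb. The members just inside and just outside the 5 kb limit were therefore Foxk1 and Foxj2.

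**Figure D2:**
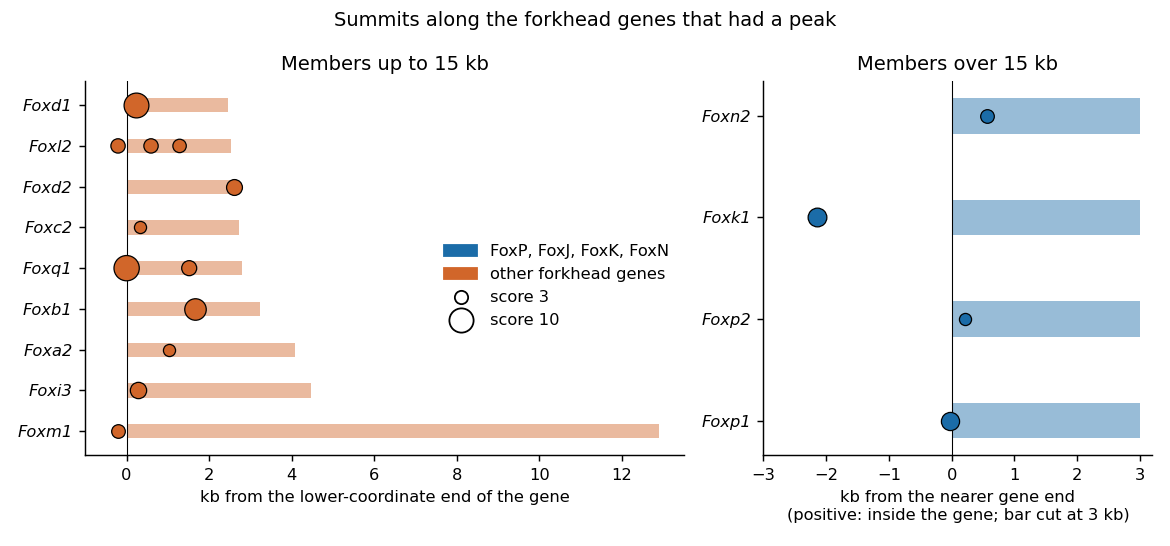
Summits (circles, area proportional to score) along the 13 forkhead genes with a peak (bars, to scale in the left panel and cut short in the right). The left panel gives kb from the lower-coordinate end. The right panel gives kb from the nearer end for the 4 genes over 15 kb, positive inside the gene. Foxl2 has 3 summits and Foxq1 2, and the Foxk1 summit is 2145 bp outside the gene.

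The highest scores were at developmental genes that are known from tissues other than T cells. Foxq1 (chromosome 13, 31558170 to 31560976), a factor of hair, stomach and epithelial cells, had the top member score, 10.9, at a summit 2 bp inside its lower end, a score that 4.85% of peaks reached. It had another summit 1518 bp in, scoring 3.85. Foxd1 (chromosome 13, 98354245 to 98356705), a factor of kidney stroma and retina, scored 10.5 at a summit 237 bp downstream of its start. Foxb1 (chromosome 9, 69757710 to 69760940), a factor of the hypothalamus and midbrain, scored 7.89. Its summit was near the middle of the gene, 1666 bp from the lower end and 1564 bp from the upper. These 3 genes are the developmental members that scored above 5.04, the median of all peaks.

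Foxl2 (chromosome 9, 98955607 to 98958126), the ovarian granulosa cell factor, had the most peaks of the members. Its summits lay 206 bp upstream of the start and 593 and 1285 bp downstream of it, and scored 3.50, 3.50 and 3.07. The upstream one, at 98955401, falls inside the Foxl2 sequence shown above. It is also 91 bp from an end of Foxl2os, a long non-coding RNA gene, and lies between that end and the Foxl2 start. The strand of Foxl2os was not examined here. The other 2 lie in the transcribed body of a gene of 2.52 kb. Among members with a peak 2 of 13 had several (15.4%), against 110 of 2476 nuclear genes with a peak (4.44%).

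Lower scores were found at Foxm1 and 4 further developmental genes. Foxi3 (chromosome 6, 70956606 to 70961066), a factor of teeth, ear and skin appendages, had a summit 274 bp downstream of its start with a score of 4.54. Foxd2 (chromosome 4, 114906280 to 114908898), of kidney and paraxial mesoderm, had one 15 bp downstream of its start, scoring 4.29, and 374 bp from an end of the non-coding Foxd2os. Foxc2 (chromosome 8, 121116171 to 121118895), the factor of lymphatic valves, had one 337 bp inside its lower end, at 2.51. Foxa2 (chromosome 2, 148042877 to 148046969), the pioneer factor of endoderm and liver, also had a score of 2.51. On the minus strand, its summit was 1023 bp from the 3′ end and 1564 bp downstream of the nearest listed start. Foxm1 (chromosome 6, 128362994 to 128375886), which drives genes of mitosis in dividing cells, had a summit scoring 3.17 that missed its lower end by 217 bp. The same summit was 134 bp from an end of Rhno1, a DNA damage response gene beside it, so the call cannot be given to either gene alone.

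The scores of the 16 forkhead summits were set beside those of all peaks. Their median score was 3.67, against 5.04 for all peaks, and 5 of 16 were above 5.04. Of the 16, Foxl2 gave 3 and Foxq1 2, and no interval was computed, so lower scores at forkhead genes are not established. The 4 lymphocyte-group summits ran from 2.51 to 5.98 and the 12 developmental ones from 2.51 to 10.9, so the ranges overlapped. Scores repeat exactly across the list: the value of 2.51 shared by Foxa2, Foxc2 and Foxp2 was that of 106 peaks.  When only the top 50% of peaks by score were kept, 5 of 40 members had one (12.5%), against 5.77% of all genes. They were Foxq1, Foxd1, Foxb1, Foxk1 and Foxp1, and the Foxk1 summit was nearer to an end of Ap5z1. No interval was computed for this small count, so a difference from 5.77% is not established.

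**Figure D3:**
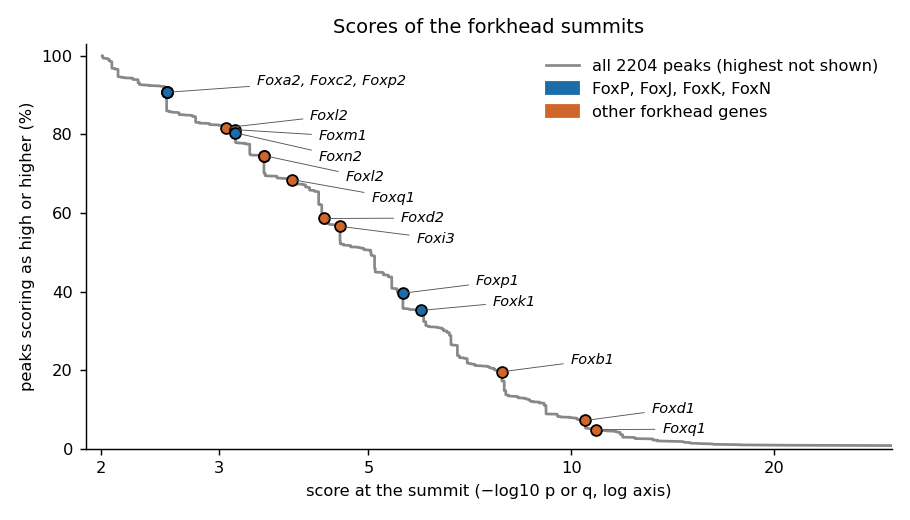
Score of each forkhead summit (−log10 p or q, log axis) on the curve of all 2204 peaks, given as the percent of peaks that score as high or higher; coinciding points, such as those of Foxa2, Foxc2 and Foxp2 at 2.51, overlap. Most members lie on the upper part of the curve, and Foxq1 at 10.9 and Foxd1 at 10.5 lie at its lower end.

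Most forkhead summits lay near the ends of genes, a position common to this peak list. Of the 16, 12 were inside the gene and 4 outside, and 15 were within 2 kb of an end of the member. The median distance to the member's own nearer end was 306 bp, and 9 were within 500 bp. Of the members 12 of 40 (30%) had a summit within 2 kb of an end, against 9.40% of all genes. Counted among genes with a peak, these were 12 of 13 members and 2059 of 2489 genes. A place near an end is thus not particular to forkhead genes. In the 6 members with a peak whose whole body is within 2 kb of an end, a summit anywhere inside counts as an end, so distances from a start say more there. For the 6 members with a listed start, the summits at Foxd1, Foxd2 and Foxi3 lay 15 to 274 bp downstream of it. Of the 3 at Foxl2, 2 were downstream. The Foxa2 summit was 1564 bp downstream of its nearest listed start, and that of Foxp1 1780 bp upstream. For the other 7 (Foxb1, Foxc2, Foxk1, Foxm1, Foxn2, Foxp2 and Foxq1) no start was listed, and their ends were not assigned to start or stop. At 11 of the 40 members (27.5%) the peak had the member's own end as its nearest gene end, against 9.24% of all genes. Among genes with a peak this was 11 of 13 members and 2023 of 2489 genes. Foxk1 and Foxm1 were the exceptions among the 13.

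Some forkhead genes sit side by side, in 3 groups of neighbours. On chromosome 13, Foxq1, Foxf2 and Foxc1 lie within 252 kb with no other protein-coding gene between them, and the 2 summits of that stretch were both at Foxq1. Foxf2, a factor of gut and palate mesenchyme, was 66.1 kb from the closer of them and Foxc1, of eye and heart, 247 kb. On chromosome 8, Foxf1, Foxc2 and Foxl1 lie within 46.3 kb, and the 1 summit was at Foxc2. Foxl1, of intestinal mesenchyme, was 11.2 kb from it and Foxf1, of lung and gut vessels, 28.4 kb. On chromosome 4, Foxd2 had the only summit and Foxe3, the lens factor, was 15.6 kb away. Each of the 3 groups of neighbours thus had peaks at 1 gene. Of all 40 members 32.5% had a peak, so 1 gene in a group of 2 or 3 is near that share. With only 3 groups, the counts cannot show whether neighbours tend to carry peaks together or apart. On chromosome 6 a peak was found at 4 of 5 members (Foxp1, Foxp2, Foxi3 and Foxm1), which lie far apart, and on chromosome 9 at 2 of 3 (Foxb1 and Foxl2). On chromosome 11, which held 169 peaks against 92 on chromosome 6, it was 0 of 4 (Foxi1, Foxj1, Foxk2 and Foxn1). Over all chromosomes 11.4% of genes had a peak, so 0 of 4 is near that share. Shares of all genes by chromosome are not given here, and the counts are too small to compare chromosomes.

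**Figure D4:**
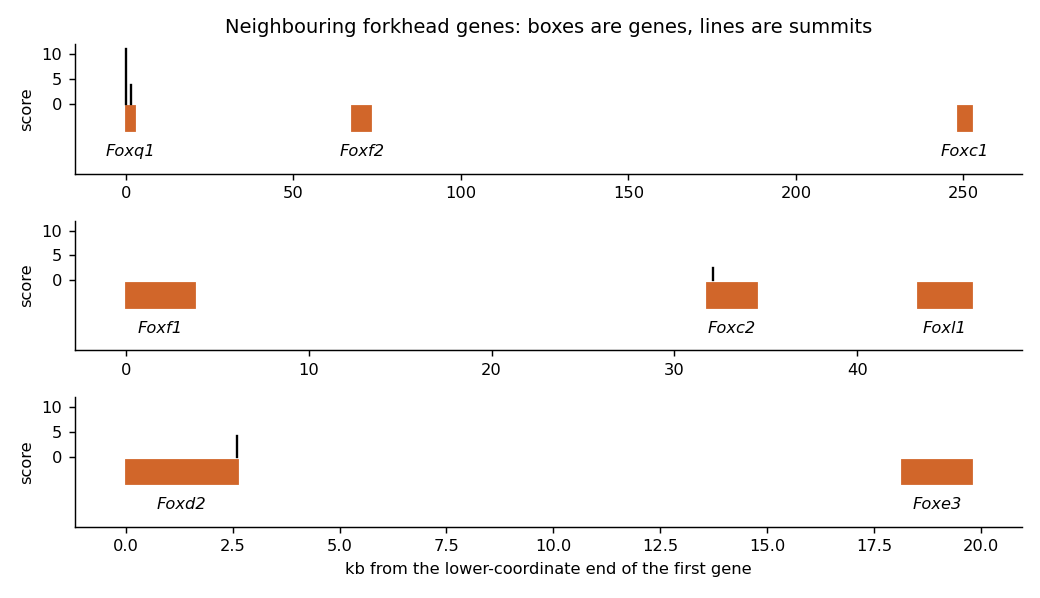
Neighbouring forkhead genes on chromosomes 13 (top), 8 (middle) and 4 (bottom), each panel to its own scale in kb from the first gene; boxes are genes, vertical lines are summits with height proportional to score, and Mthfsd and non-coding genes are not drawn. In each panel summits stand at 1 gene, Foxq1, Foxc2 or Foxd2.

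The 27 members without a peak lay at widely differing distances from the closest summit. These ran from 8.84 kb to 6123 kb with a median of 124 kb, and 16 of the genes were over 100 kb away. A distance over 5 kb follows from the rule, and distances of other genes without a peak are not given for comparison. The 9 lymphocyte-group genes among the 27 had a median of 105 kb and the 18 developmental genes 162 kb. Foxa1, the partner of Foxa2 in endoderm, was 1584 kb away, and Foxa3, the third of that subfamily, 71.4 kb. Foxh1, which carries Smad signals in the early embryo, was 60.2 kb away. Foxd3, a neural crest and stem cell factor, was at 57.0 kb, while its relatives Foxd1 and Foxd2 had peaks and Foxd4 was 1140 kb away. Foxe1, the thyroid factor, was at 205 kb, Foxs1 at 101 kb and Foxb2 at 740 kb. Foxi1 and Foxi2, relatives of Foxi3, were 1003 and 124 kb away. Foxr1 was at 200486 bp, and Foxr2, on X, had the longest distance. Of FoxA to FoxE genes 5 of 13 had a peak, of FoxF, FoxL and FoxQ 2 of 5, and of FoxH, FoxI, FoxR and FoxS 1 of 7. Among all genes it was 11.4%, and the last set, at 14.3% (interval 0.361 to 57.9), is near that share. The sets are too small to tell apart.

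**Figure D5:**
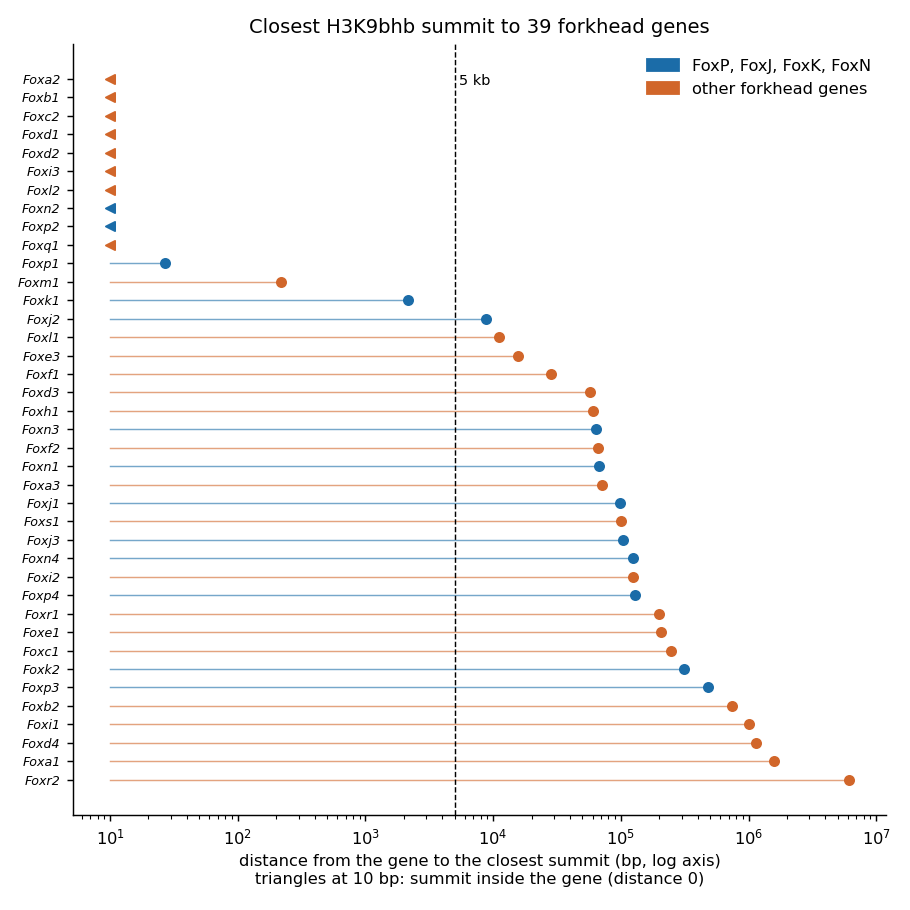
Distance from 39 of the forkhead genes to the closest summit (bp, log axis); triangles mark genes with a summit inside, and the dashed line the 5 kb limit. The 13 genes left of the line have a peak, and the 26 others shown range from Foxj2 at 8.84 kb to Foxr2 at 6123 kb.

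Set beside other families of transcription factors, the forkhead share was close to Hox and Klf and above Sox. Hox genes, which pattern the body axis, had a peak at 11 of 39 (28.2%), a difference of 4.29 points (interval -15.6 to 23.7). Since they lie in clusters, those 11 genes shared 8 peaks. Klf zinc finger genes had 5 of 17 (29.4%, difference 3.09 points, -23.7 to 25.4). The 4 FoxO genes, with 2 of 4, are too few to compare. Sox genes, another developmental family with short genes, had 0 of 19, with an upper limit of 15.8% from 3 counts of the total. The difference to Sox was 32.5 points (11.6 to 48.0), the 1 of the 4 intervals that left out 0. Of genes up to 5 kb, 8 of 22 forkhead genes (36.4%), 4 of 24 Hox genes (16.7%), 1 of 3 Klf genes (33.3%) and 0 of 10 Sox genes had a peak. No p-value is given, since genes of 1 library are not replicates.

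Peaks were also found at genes of proteins that work with forkhead factors, a list that includes 4 thymic epithelial targets of FoxN1. Of 44 such genes 14 had one (31.8%, exact 95% interval 18.6 to 47.6), against 11.4% of all genes. The list was chosen with earlier results of these data known, so this share is not an independent check. The partner genes had a median length of 36.9 kb, and of all genes from 20 to 100 kb 15.8% had a peak. The partners of FoxM1 in the MuvB and DREAM complexes, which time cell cycle genes, had 5 of 11: Rbl1 (score 10.5), Rbl2 (7.95), Rbbp4 (7.70), Lin9 (6.01) and Tfdp1 (5.04). Their summits were 135, 179, 12, 379 and 506 bp from an end of the gene, and no nearer gene end was found. Rbl1 and Rbl2 encode pocket proteins that hold these genes silent in resting cells. Sin3, HDAC and BAP1 proteins that bind FoxK had 3 of 12: Sin3b (5.26), Hdac2 (4.09) and Sin3a (3.17). Corepressors of FoxP had 1 of 8, Gatad2a (6.80), whose summit was 372 bp from Tssk6 and 3923 bp from Gatad2a. Smad partners of FoxH1 had 1 of 3, Smad3 (2.08). Motile cilium regulators that work with FoxJ1 had 3 of 6: Cdc20b (5.41), and Mcidas and Ccno, which were called from the same summit (4.26), 140 bp from Mcidas. Of the thymic epithelial targets of FoxN1, 1 of 4 had a peak: Dll4 (6.78), the Notch ligand. These lists hold 3 to 12 genes each, so their shares carry wide counting errors.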

How the data were processed

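Peaks of 1 H3K9bhb ChIP library were used; the input library was not analysed here by itself. The submitters' processing notes name MACS2 2.1.2, Bowtie2 2.3.5, Trimmomatic 0.39 and FastQC 0.11.8, and build mm10. The sources used here do not give the caller's settings, the use of the input, duplicate removal or blacklists. Scores were used as deposited, 1 per summit: −log10 of p or of q, without a statement of which. Neither peak widths nor reads per peak were used here, and the depth behind each peak is unknown.

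Summits were set against gene spans and promoter sequences of RefSeq (GRCm38.p6) with Python 3.11.15, numpy 2.4.6, pandas 2.3.3, scipy 1.17.1, statsmodels 0.14.6 and matplotlib 3.10.9. Intervals are Clopper-Pearson, Poisson or Newcombe at 95%. With 1 library there is no replicate and no p-value. The counting function was tested on simulated summits. Every forkhead gene with a peak is named with its summits, and the others by distance, except 1 that is counted but not reported here by name; partner genes are named when they had a peak. The members and lists were chosen with earlier results of these data known. Alternatives covered flanks, end windows, scores, nearest genes, summits per peak and membership.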

Additional observations from a re-analysis of the deposited data

How the results depend on the processing

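With 1 library, nothing could be left out or paired. No paired analysis was possible because no result comes from a test and each group has 1 sample. Counts stayed within 1.5 times the reported ones in 26 of 33 alternatives. Using the 50% of peaks with the highest scores, counts fell to 5 of 40 forkhead genes (12.5%) and 9 of 44 partner genes (20.5%). They fell to 2 of 13 lymphocyte-group genes (15.4%) and 3 of 27 developmental genes (11.1%). This setting uses fewer peaks by construction, and 5.77% of all genes had a peak under it. Forkhead genes with a summit within 2 kb of an end fell to 4 of 40, and the share of all genes for that count is not given. Counted inside the annotated gene only, 2 of 13 lymphocyte-group genes (15.4%) had a peak, since the Foxp1 and Foxk1 summits lie outside. The share of all genes was 8.71%. With listed transcription starts only, 6 of 26 genes had a summit within 2 kb, since fewer genes could be counted. With 10 kb flanks Foxj2 joined (14 of 40, 35%), against 13% of all genes. Without windows that hold another protein-coding gene 11 of 26 had a peak. For listed starts and for such windows the share of all genes is not given. Reads behind each summit were not analysed here, so the effect of depth is unknown.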
